A study of Homo sapiens with 6 samples.

Results

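The genes examined were the coactivators PPARGC1A and PPARGC1B, the uncoupling proteins UCP1, UCP2 and UCP3, the brown-fat genes CIDEA and DIO2, and the mitochondrial regulators TFAM, NRF1 and ESRRA. They were taken by gene symbol, 10 of the 38648 genes and gene copies listed in the count tables, because they are mitochondrial regulators or brown-fat genes linked to the transcription factor PRDM16 in other tissues. Each of the 10 was listed once. The data were 6 poly(A) RNA-seq libraries of HK-2, an immortalized line of human proximal tubular cells. The control line carried a negative control lentivirus (IR+NC-LV, n = 3) and the other a PRDM16 overexpression lentivirus (IR+PR-LV, n = 3), and both had received 8 Gy of X-rays in a single dose and were harvested at day 7. No unirradiated libraries were analysed here, so irradiation is shared by both groups. The labels number the libraries of a group 1 to 3 without saying that they came from separate cultures, so p-values measure only the spread between these samples, which may be technical. The study used puromycin to remove HK-2 cells that had not taken up lentivirus. Whether each line was 1 clone is not given in the sources used here.

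Total counts ranged from 13407074 to 28540041 per library. PRDM16 itself, the overexpressed gene, had 2, 0 and 1 counts in IR+NC-LV against 14, 10 and 8 counts in IR+PR-LV. All 3 libraries labelled IR+PR-LV were above all 3 controls, although the mean of 0.542 ± 0.256 CPM (counts scaled to the library total, SD, n = 3) against 0.0637 ± 0.0600 CPM remained low, and the exact permutation test gave p = 0.1, the smallest value that 3 against 3 libraries allow. The ratio of summed counts per total count was 8.51, with an exact binomial 95% interval from 2.66 to 43.4 that covers counting error only. Of the 8 kidney epithelial markers checked, KRT8, KRT18 and KRT19 were abundant, at means of 833.8, 631.7 and 552.7 TPM (counts scaled by gene length and library total). Of the others, CDH2 stood at 228.9, PAX8 at 137.5 and EPCAM at 53.3 TPM, while PAX2 stood at 3.06 and CDH1 at 0.42 TPM. The list summed to between 2317 and 2810 TPM per library, most of it from the keratins. Of the 12 proximal tubule markers, all had a count and 6 passed the filter on low counts, with GGT1 at a mean of 69.9 TPM and AQP1 at 2.92 TPM. The endocytic receptor LRP2 had 3 counts over the 6 libraries, the transcription factor HNF4A 4, and the anion transporters SLC22A6 and SLC22A8 1 each. Adipocyte markers summed to between 2.57 and 3.32 TPM in IR+NC-LV against between 2.69 and 3.26 TPM in IR+PR-LV. ADIPOQ had 1 count and FABP4 3, while LPL had 188 (mean 1.48 TPM) and PLIN4 126 (0.434 TPM), and these 2 passed the filter. The 8 muscle markers summed to between 2.46 and 3.41 TPM in the control libraries and between 2.28 and 4.92 TPM in the IR+PR-LV libraries. No count was found for 3 of them, MYH7, MYH2 and TNNT3, while TNNT2 with 70 counts and DES with 61 passed the filter.

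PGC-1α, encoded by PPARGC1A, and its relative PGC-1β do not bind DNA but join transcription factors such as NRF1 and ERRα at the promoters of nuclear genes for mitochondrial proteins. Among these genes is TFAM, whose product packages mitochondrial DNA and starts its transcription. In brown fat, PRDM16 and PGC-1α act together on UCP1, which lets protons flow back across the inner mitochondrial membrane and releases heat. DIO2 converts thyroxine into active thyroid hormone, and CIDEA coats lipid droplets. The kidney tubule is rich in mitochondria but is not a thermogenic tissue.

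RefSeq promoter windows on GRCh38.p14, from 250 bases before to 50 bases after an annotated start, were found for 9 of the 10 genes, 12 windows in all. They are shown for 5 genes. Both windows found are shown for PPARGC1A, the only one of the 10 with a p-value below the unadjusted threshold. UCP1 and UCP2 are shown as the least and most abundant uncoupling proteins, and ESRRA and DIO2 because their windows held the rarer of the motifs searched. Capitals mark matches on either strand to the NRF1 core GCATGCGC, the cAMP response element TGACGTCA, the TATA box TATAAA and the GC box GGGCGG.
PPARGC1A, distal start (chr4:24472856-24473155, minus strand): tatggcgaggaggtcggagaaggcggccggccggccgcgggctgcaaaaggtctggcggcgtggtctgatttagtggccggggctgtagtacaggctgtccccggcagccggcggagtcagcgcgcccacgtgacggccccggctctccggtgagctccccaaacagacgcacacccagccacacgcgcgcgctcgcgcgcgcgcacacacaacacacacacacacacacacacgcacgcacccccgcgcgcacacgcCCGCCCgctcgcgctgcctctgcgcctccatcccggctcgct
PPARGC1A, proximal start (chr4:23881052-23881351, minus strand): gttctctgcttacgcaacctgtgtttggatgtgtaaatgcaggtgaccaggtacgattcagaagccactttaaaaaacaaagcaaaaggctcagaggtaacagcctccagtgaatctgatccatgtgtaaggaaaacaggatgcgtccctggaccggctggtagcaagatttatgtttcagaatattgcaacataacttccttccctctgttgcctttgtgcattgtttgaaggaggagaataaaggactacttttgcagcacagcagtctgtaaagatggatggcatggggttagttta
UCP1 (chr4:140568912-140569211, minus strand): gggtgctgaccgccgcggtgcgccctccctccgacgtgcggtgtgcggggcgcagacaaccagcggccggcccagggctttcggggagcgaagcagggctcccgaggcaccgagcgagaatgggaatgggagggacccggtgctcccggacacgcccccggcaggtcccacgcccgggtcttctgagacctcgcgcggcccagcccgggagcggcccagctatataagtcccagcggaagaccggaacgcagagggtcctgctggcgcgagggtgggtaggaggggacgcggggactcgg
UCP2 (chr11:73982794-73983093, minus strand): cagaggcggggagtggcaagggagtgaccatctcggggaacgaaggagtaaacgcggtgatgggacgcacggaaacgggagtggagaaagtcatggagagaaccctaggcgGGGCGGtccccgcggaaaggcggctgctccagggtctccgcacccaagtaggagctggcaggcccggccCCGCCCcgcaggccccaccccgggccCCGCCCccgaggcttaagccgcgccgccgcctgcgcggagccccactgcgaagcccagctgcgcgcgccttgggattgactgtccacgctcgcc
ESRRA (chr11:64305274-64305573, plus strand): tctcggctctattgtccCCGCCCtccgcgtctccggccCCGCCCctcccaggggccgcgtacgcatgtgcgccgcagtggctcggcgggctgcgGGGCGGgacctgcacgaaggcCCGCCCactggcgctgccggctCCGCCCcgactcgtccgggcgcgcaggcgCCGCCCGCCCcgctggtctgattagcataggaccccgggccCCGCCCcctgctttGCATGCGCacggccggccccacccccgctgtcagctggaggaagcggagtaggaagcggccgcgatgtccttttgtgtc
DIO2 (chr14:80212129-80212428, minus strand): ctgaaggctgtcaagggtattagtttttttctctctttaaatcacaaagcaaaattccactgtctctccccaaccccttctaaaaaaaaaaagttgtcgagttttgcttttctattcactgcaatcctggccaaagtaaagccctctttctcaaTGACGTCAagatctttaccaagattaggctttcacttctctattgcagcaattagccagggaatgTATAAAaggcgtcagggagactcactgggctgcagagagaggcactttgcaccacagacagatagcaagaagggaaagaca

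The windows of PPARGC1A differed in composition. The distal one held 42 CpG dinucleotides and the proximal one 4, beside a median of 14 over the 35116 RefSeq windows of this length. UCP1, barely detected in HK-2, had 35 CpG and UCP2, among the abundant genes, 32 in the window shown, so a CpG-rich start was present at both. The NRF1 core was found once, in ESRRA, and occurs in 3.05% of all windows. The cAMP response element was found in the DIO2 window shown, beside a TATA box, and these motifs occur in 1.85% and 11.5% of windows. The GC box, in 45% of all windows, was matched 8 times in ESRRA, where some matches overlap. Neither the ERR element TCAAGGTCA nor the ETS site CCGGAAG, in 0.353% and 10.3% of all windows, occurred in any of the 12 windows. These are matches of letters and do not show that a factor bound, and sequence outside these windows, including any other start, was not searched.

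At the level of transcripts, 9 of the 10 genes were detected and ranged from a mean of 0.185 to 120.4 TPM. TFAM (mean 120.4 TPM) and UCP2 (102.4 TPM) were the most abundant, and their ranges over the 6 libraries overlapped, with TFAM above UCP2 in 6 of 6 libraries. NRF1 (21.2 TPM) and ESRRA (14.1 TPM) followed, each clear of its neighbours. PPARGC1A (4.20 TPM) and PPARGC1B (3.17 TPM) overlapped in range, as did UCP3 (1.14 TPM) and DIO2 (1.08 TPM). UCP1 was listed at 0.185 TPM. CIDEA had a count of 0 in all 6 libraries, which allows up to 0.0260 CPM over the 115430886 counts and covers counting error only.

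**Figure D1:**
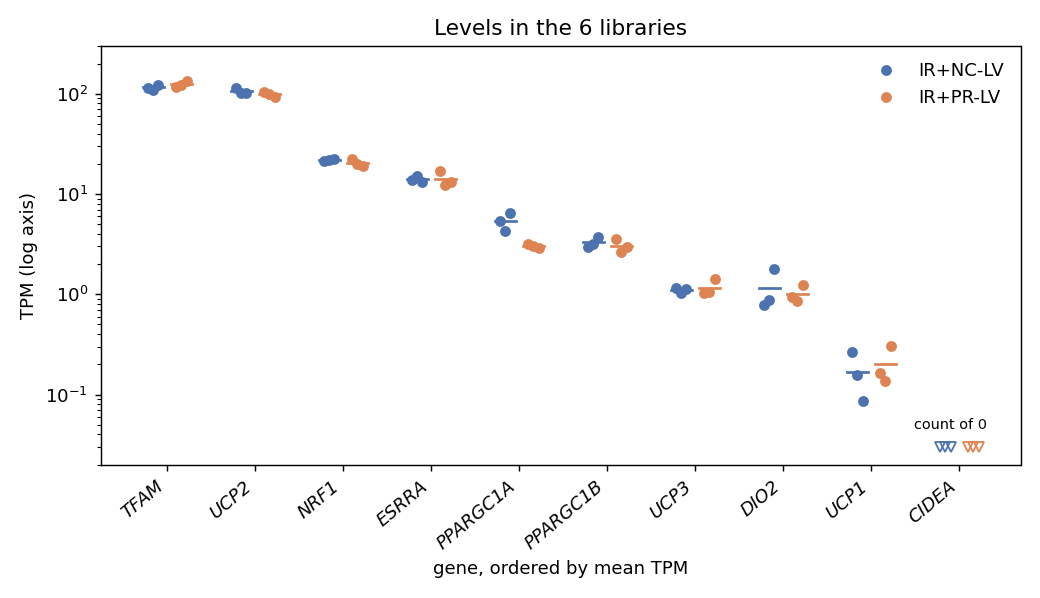
TPM of the 10 genes on a log axis, with 1 point per library, a line at each group mean, blue for IR+NC-LV and orange for IR+PR-LV. TFAM and UCP2 lie near 100 TPM, PPARGC1A separates by group, and CIDEA, drawn as open triangles at an arbitrary height, had a count of 0 in all 6 libraries.

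Of the 10 genes, 8 passed the filter on low counts and were tested for IR+PR-LV against IR+NC-LV, while UCP1 and CIDEA did not pass. None of the 8 passed an adjusted p of 0.05 in the quasi-likelihood test of edgeR (Benjamini-Hochberg), and 1, PPARGC1A, had an unadjusted p under 0.05. Over all 15340 genes and gene copies tested, 0.0652% passed the adjusted threshold and 10.5% the unadjusted one, 4.55% with higher and 5.97% with lower values in IR+PR-LV. Log2 fold changes were positive for 3 of the 8 and negative for 5, with a median of -0.06, beside a median of 0.0044 over all genes tested. The libraries of the groups did not overlap for 2 of the 8, PPARGC1A and TFAM (chr10:58385409-58399220, plus strand), on the CPM scale, as was so for 17% of all genes tested. In bulk samples, fewer cells that express a gene and less RNA per cell cannot be told apart.

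**Figure D2:**
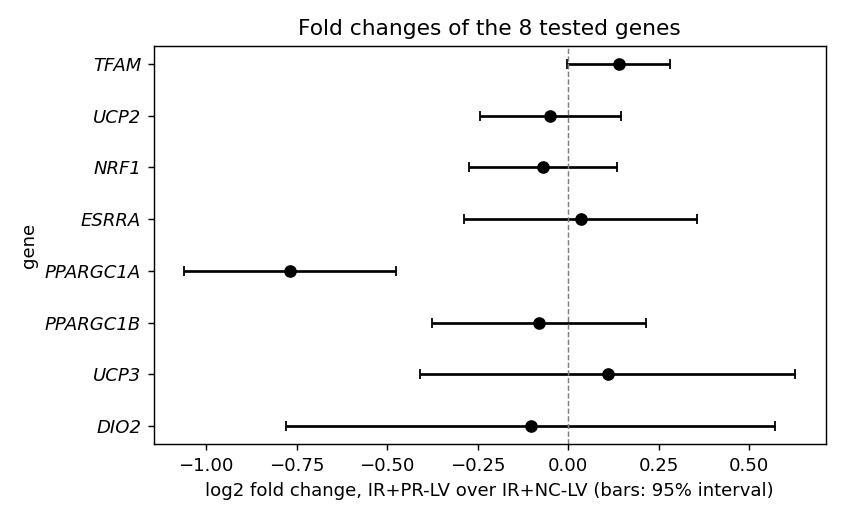
Log2 fold change of IR+PR-LV over IR+NC-LV for the 8 tested genes, with 95% intervals from edgeR. The interval of PPARGC1A, from -1.06 to -0.47, lies away from 0, and the other 7 include 0.

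Among the coactivators, PPARGC1A was lower in IR+PR-LV but did not pass the adjusted threshold. The gene lies on chr4:23792021-24472905, minus strand, of GRCh38, with 11937 exon bases in the annotation of the files. It had 328, 338 and 308 counts in IR+NC-LV against 200, 318 and 194 in IR+PR-LV, which gave 5.33, 4.29 and 6.47 TPM against 3.21, 3.03 and 2.88 TPM. The count of 318 came from the deepest library, and once depth was taken into account every IR+PR-LV library was below every control, with far less spread among the IR+PR-LV libraries. Mean CPM was 19.3 ± 3.07 in IR+NC-LV against 11.3 ± 0.688 in IR+PR-LV (SD, n = 3 each). The fold change was 0.588, with a 95% interval from 0.480 to 0.720, or -0.77 on the log2 scale (SE 0.13). In edgeR the unadjusted p of 0.000211 ranked 40th among all genes tested, and the adjusted p was 0.0799.

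The call for PPARGC1A depended on the procedure while its direction did not. DESeq2 gave -0.75 on the log2 scale with an adjusted p of 0.00037, where 1.13% of 14851 genes passed. With edgeR and no filter on low counts the log2 fold change was -0.76 and the adjusted p 0.000131, where 1.19% of 28831 genes passed. Without IR+NC-LV replicate 2, the control nearest to the IR+PR-LV libraries, it was -0.89 with an adjusted p of 0.0414 in edgeR. Leaving out any other library gave adjusted p-values between 0.123 and 0.280 in edgeR, with a log2 fold change of -0.65 without IR+NC-LV replicate 3. The direction was negative under each of the 14 settings plotted.

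**Figure D3:**
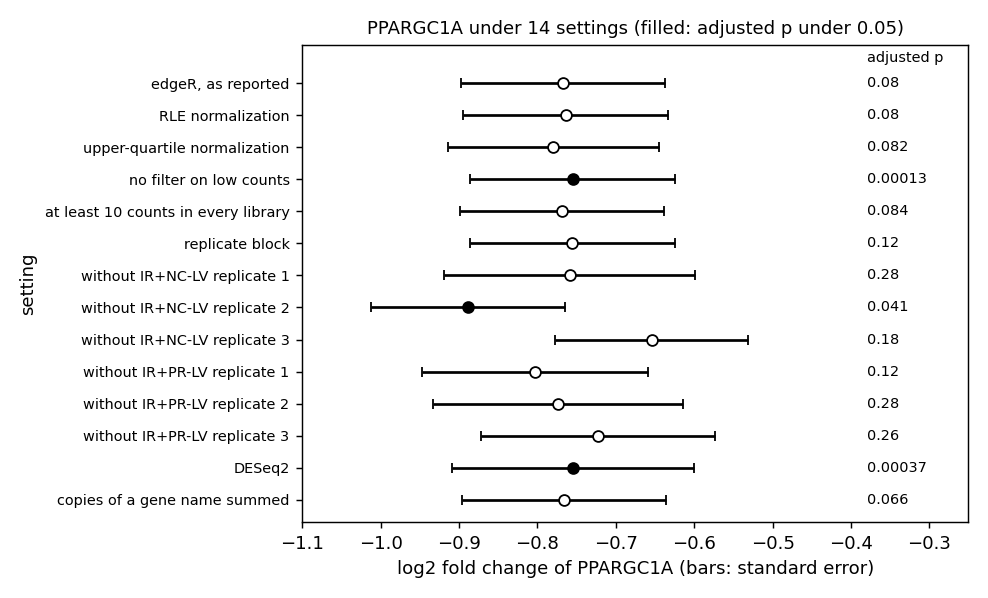
Log2 fold change of PPARGC1A with its standard error under the reported fit and 13 alternatives, with filled points where the adjusted p, printed at the right, was under 0.05. Estimates run from -0.89 to -0.65, and 3 of the 14 are filled.

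PPARGC1B, which shares the PGC-1 role in mitochondrial biogenesis, lies on chr5:149730302-149857861, plus strand. Its counts were 202, 276 and 194 in IR+NC-LV against 242, 303 and 218 in IR+PR-LV, and its TPM 2.99, 3.19 and 3.71 against 3.53, 2.63 and 2.95. The groups overlapped, and the highest and lowest CPM of the 6 both belonged to IR+PR-LV. The log2 fold change was -0.08 (95% interval -0.38 to 0.21, adjusted p = 0.861 in edgeR), so a change of the size seen for PPARGC1A lay outside the interval. PPARGC1A made up 64.1%, 57.3% and 63.5% of the TPM of PPARGC1A and PPARGC1B together in IR+NC-LV against 47.6%, 53.5% and 49.4% in IR+PR-LV. Every IR+PR-LV share was below every control share, a mean of 50.2% ± 3.05 against 61.7% ± 3.74, with p = 0.1 in the exact two-sided permutation test, the smallest possible here. This share was computed after the values of PPARGC1A were known.

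The third member of the family, PPRC1, was more abundant than both, with 43.0, 38.2 and 48.9 TPM in IR+NC-LV. Summed over the 3 genes, PGC-1 transcripts stood at 52.0 ± 6.70 TPM in IR+NC-LV against 47.1 ± 6.13 TPM in IR+PR-LV (two-sided exact permutation p = 0.5), so most of the family total came from a gene other than PPARGC1A. This sum, too, was tested after the values were seen, and the count ratios of PRDM16 and UCP1 were computed then.

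**Figure D4:**
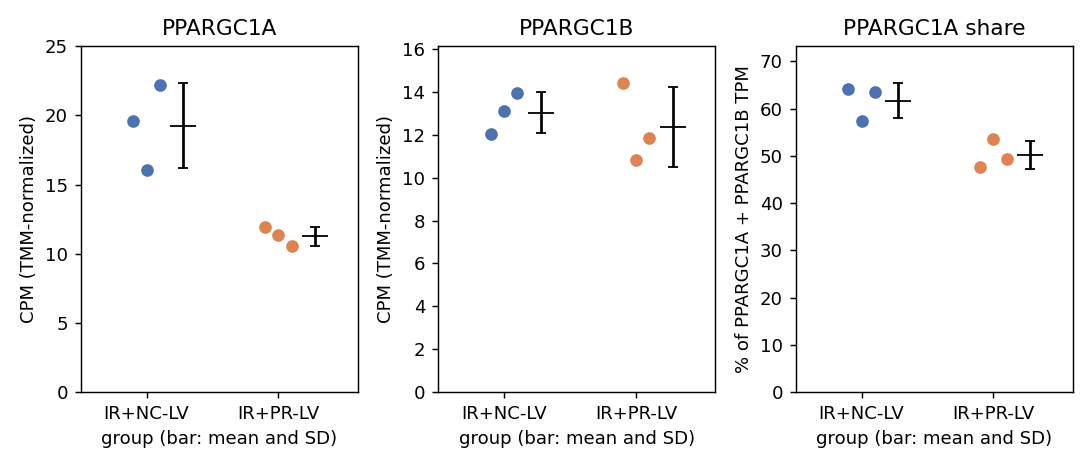
CPM of PPARGC1A and PPARGC1B and the PPARGC1A share of their summed TPM, with 1 point per library and the mean and SD of each group beside them on axes starting at 0. Groups separate for PPARGC1A and for the share but overlap for PPARGC1B.

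The transcription factors that work with PGC-1 showed no difference beyond the spread. NRF1, a nuclear respiratory factor, on chr7:129611720-129757076, plus strand, had 404, 533 and 331 counts in IR+NC-LV against 429, 643 and 392 in IR+PR-LV, and its TPM was 21.3, 22.0 and 22.6 against 22.3, 19.9 and 18.9. The groups overlapped through IR+PR-LV replicate 1, and the log2 fold change was -0.07 (95% interval -0.27 to 0.13, adjusted p = 0.823 in edgeR). ESRRA, on chr11:64305524-64316743, plus strand, encodes the nuclear receptor ERRα and is itself induced by PGC-1α in other cells. It had 255, 355 and 188 counts in IR+NC-LV against 318, 387 and 262 in IR+PR-LV. Its TPM was 13.9, 15.1 and 13.3 against 17.1, 12.4 and 13.04, with IR+PR-LV replicate 1 the highest and replicate 2 the lowest of all 6. The log2 fold change was 0.03 (95% interval -0.29 to 0.36, adjusted p = 0.949 in edgeR). The assignment of its reads is uncertain, since 284 exon bases of ESRRA overlap TRMT112 on the other strand and 91.2% of its 100-base stretches occur in no other annotated gene.

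TFAM (chr10:58385409-58399220, plus strand), on the CPM scale, was somewhat higher in IR+PR-LV without passing the test. It had 3026, 3706 and 2503 counts in IR+NC-LV against 3105, 5479 and 3865 in IR+PR-LV, or 180.4, 176.0 and 180.2 CPM against 184.9, 195.9 and 210.1 CPM. Every IR+PR-LV library exceeded every control in CPM, but in TPM the ranges overlapped, with 115.2, 110.3 and 123.3 against 116.6, 122.5 and 134.4. The log2 fold change was 0.14 (SE 0.06, 95% interval -0.0027 to 0.28), a fold of 1.10, with an adjusted p of 0.482 in edgeR. The 2 genes that did not overlap on the CPM scale lay in opposite directions, PPARGC1A lower and TFAM higher. On that scale the groups did not overlap for 17% of all genes tested.

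Among the uncoupling proteins, HK-2 cells expressed almost exclusively UCP2, which is found in many tissues and whose part in proton leak is debated. UCP2, on chr11:73974671-73983202, minus strand, gave between 98.2% and 98.9% of the summed TPM of UCP1, UCP2 and UCP3. Its counts were 1306, 1489 and 909 in IR+NC-LV against 1230, 1974 and 1160 in IR+PR-LV, and its TPM 113.3, 101.1 and 102.1 against 105.3, 100.6 and 92.0. The groups overlapped, and the log2 fold change was -0.05 (95% interval -0.24 to 0.15, adjusted p = 0.872 in edgeR). The summed TPM was 106.8 ± 6.94 in IR+NC-LV against 100.7 ± 6.48 in IR+PR-LV with SD over 3 libraries each, and p = 0.4 in the exact two-sided permutation test.

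UCP3, mainly a skeletal muscle gene, on chr11:74000277-74009085, minus strand, was present at low counts of 20, 23 and 15 in IR+NC-LV against 18, 31 and 27 in IR+PR-LV. Its TPM lay between 1.03 and 1.43 in all 6 libraries, and the log2 fold change was 0.11 (95% interval -0.41 to 0.63, adjusted p = 0.907 in edgeR). UCP1, the brown-fat uncoupling protein, on chr4:140555770-140568961, minus strand, had 8, 6 and 2 counts in IR+NC-LV against 5, 7 and 10 in IR+PR-LV, 38 counts in all. The highest and lowest libraries came from different groups but the ranges overlapped, with means of 0.302 ± 0.167 and 0.364 ± 0.157 CPM (two-sided exact permutation p = 0.6). The ratio of summed counts per total count was 1.10, with an exact binomial 95% interval from 0.550 to 2.23 that covers counting error only. Ratios of UCP1 within that interval are compatible with the summed counts, without allowing for the spread between libraries.

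Of the brown-fat genes, CIDEA (chr18:12254361-12277595, plus strand) had no count. Its floors, 3 counts of a group's total without TMM normalization, were 0.0586 CPM in IR+NC-LV against 0.0467 CPM in IR+PR-LV. DIO2 (chr14:80197526-80231057, minus strand) had 28, 40 and 50 counts in IR+NC-LV against 34, 53 and 49 in IR+PR-LV. IR+NC-LV replicate 1 was the lowest and replicate 3 the highest of the 6 in TPM, at 0.780 and 1.80, with the IR+PR-LV libraries at 0.934, 0.867 and 1.25 between them. The log2 fold change was -0.10 (95% interval -0.78 to 0.57, adjusted p = 0.923 in edgeR), the widest interval among the 8. It turned positive, 0.28, without IR+NC-LV replicate 3.

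The wider pathway was read through 7 lists with 157 genes counted once each, of which 129 were tested. None of the 129 passed the adjusted threshold in edgeR or in DESeq2, and 10 had an unadjusted p under 0.05 in edgeR, 5 higher and 5 lower, or 7.75% beside the 10.5% of all genes tested. Log2 fold changes were positive for 71 and negative for 58, beside 7839 and 7501 of all genes tested.

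Among 36 tested partners and regulators of PGC-1, 16 were higher and 20 lower, with a median of -0.01 (log2). The smallest p-values belonged to PRKAB1, a regulatory subunit of the kinase AMPK, and SIRT1, the deacetylase, which both act on PGC-1α. PRKAB1 stood at 60.5 ± 7.90 TPM in IR+NC-LV against 47.3 ± 0.715 TPM in IR+PR-LV, and the log2 fold change was -0.31 (SE 0.08, adjusted p = 0.259 in edgeR). SIRT1 stood at 63.8 ± 9.77 and 51.4 ± 2.71 TPM, and the log2 fold change was -0.26 (SE 0.08, adjusted p = 0.348 in edgeR). As with PPARGC1A, the groups did not overlap for either gene, as was so for 17% of all genes tested, and neither passed the threshold. Other genes of this list also did not overlap, in both directions. NRIP1, a corepressor, was the most abundant of the list at 169.5 TPM.

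The 28 genes of mitochondrial DNA maintenance and transcription, all tested, had a median log2 fold change of 0.03, with 20 higher and 8 lower. LRPPRC, which stabilizes mitochondrial mRNA, had the smallest p of these, at 138.0 ± 1.31 TPM in IR+NC-LV against 152.7 ± 3.61 TPM in IR+PR-LV (log2 fold change 0.18, SE 0.06, adjusted p = 0.328 in edgeR). TFB2M, a transcription factor of mitochondrial DNA that works beside TFAM, had a log2 fold change of 0.14 (adjusted p = 0.531 in edgeR). The most abundant was SLIRP, the partner of LRPPRC, at 207.9 TPM. Transcripts of mitochondrial DNA were not analysed here.

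Of 31 tested target genes of PGC-1 and ERRα, 20 were higher and 11 lower, with a median of 0.06 (log2). SDHB, a subunit of succinate dehydrogenase, stood at 394.0 ± 13.3 and 442.0 ± 7.14 TPM (log2 fold change 0.20, SE 0.07, adjusted p = 0.379 in edgeR), and MFN1, which fuses mitochondria, had a log2 fold change of 0.19 (adjusted p = 0.414 in edgeR). ATP5F1B, the catalytic subunit of ATP synthase, was the most abundant at 1556 TPM. NDUFS1 and UQCRC2 had larger log2 fold changes, 0.97 and 0.77, but each was listed as 2 copies among which reads may be divided, the groups overlapped, and neither passed the threshold. These were named after their values were seen.

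Of the 31 brown and beige adipocyte genes, 3 had no count and 16 were tested, 6 with positive and 10 with negative log2 fold changes and a median of -0.04. EBF2, ZIC1 and LHX8, which mark brown-fat precursors or brown fat, had no count in any library, and ADRB3, the adrenergic receptor that drives thermogenesis, had 1 count in all. Other genes of the list were expressed, among them KCNK3 (13.6 TPM), P2RX5 (7.92 TPM) and ELOVL3 (2.33 TPM), and ADRB1 had 67 counts. The smallest p-values came from genes that also act outside fat. TNFRSF9, a costimulatory receptor also used as a beige marker, had and the log2 fold change was -0.31 (SE 0.07, adjusted p = 0.216 in edgeR), and CEBPB, a transcription factor that pairs with PRDM16 in brown-fat precursors, had -0.19 (SE 0.07, adjusted p = 0.415 in edgeR). EVA1A was the most abundant, at 133.4 TPM.

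Heat production that does not use UCP1 was covered by 13 genes of creatine and calcium cycling, 9 of them tested, with a median log2 fold change of 0.06. CKB, the creatine kinase of the creatine cycle, was the most abundant at 395.1 TPM, and ATP2A1, a calcium pump, had the smallest p (log2 fold change -0.45, adjusted p = 0.573 in edgeR), followed by GAMT, an enzyme of creatine synthesis (0.18, adjusted p = 0.632 in edgeR). Of the other mitochondrial carriers linked to proton leak, 8 of 9 were tested, with a median of -0.03. SLC25A5, an ADP/ATP carrier, reached 737.8 TPM, more than the uncoupling proteins together, and had a log2 fold change of 0.04. SLC25A6 had -0.69 (adjusted p = 0.464 in edgeR) but was listed as 2 copies, and SLC25A4 had -0.09 (adjusted p = 0.694 in edgeR). Of the 8 genes of the CIDE and deiodinase families and thyroid hormone handling, 3 were tested. SECISBP2, needed to make selenoproteins such as deiodinases, was the most abundant at 21.6 TPM, and SLC16A10, an amino acid and thyroid hormone transporter, had a log2 fold change of 0.19 (adjusted p = 0.856 in edgeR).

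**Figure D5:**
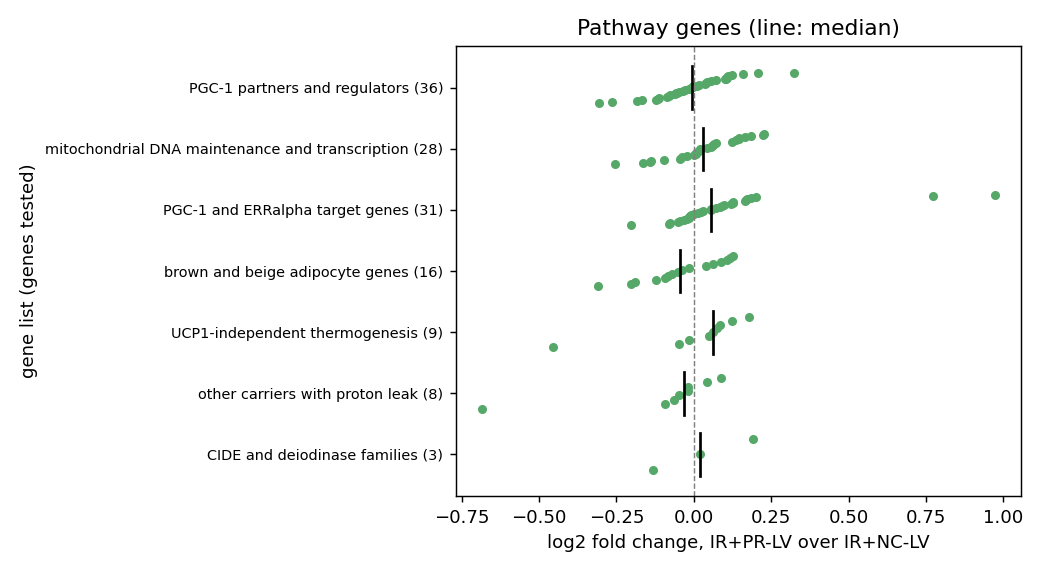
Log2 fold change of IR+PR-LV over IR+NC-LV for each tested gene of the 7 lists, 1 point per gene, with a line at the median of each list and the number tested in brackets. Medians lie between -0.04 and 0.06, and the points beyond 0.7 are NDUFS1 and UQCRC2.

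Among the markers of other cell types, NPHS1, a podocyte gene at 1.08 ± 0.129 TPM in IR+NC-LV against 0.377 ± 0.0482 TPM in IR+PR-LV, was separated between the groups like PPARGC1A (log2 fold change -1.43, adjusted p = 0.0755 in edgeR). Such separation was seen for 17% of all genes tested. NPHS1 had 134 counts in all, between 10 and 36 per library. Its list of 11 markers of other kidney cells summed to between 10.9 and 15.7 TPM in IR+NC-LV against between 11.1 and 13.6 TPM in IR+PR-LV. Most of that came from COL1A1 (10.6 ± 2.12 and 10.4 ± 1.51 TPM). The other 2 tested markers of that list, COL1A1 and COL3A1, had positive log2 fold changes, 0.02 and 0.34. The proximal tubule list summed to between 80.8 and 83.5 TPM in IR+NC-LV against between 63.0 and 81.6 TPM in IR+PR-LV, most of it from GGT1 (74.4 ± 2.66 and 65.4 ± 9.13 TPM, adjusted p = 0.684 in edgeR). Of its 6 tested markers, 1 had a positive and 5 a negative log2 fold change, with a median of -0.12. The kidney epithelium list summed to between 2317 and 2407 TPM in the control libraries and between 2328 and 2810 TPM in the IR+PR-LV libraries. Log2 fold changes were positive for 8 of 8 of its markers, with a median of 0.12 and none past the threshold. Positive values were found for 7839 of all 15340 genes tested. The part of these markers in the PPARGC1A result was not tested.

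As a description of pattern, the profile of PPARGC1A over the 6 libraries was most like those of DOCK9 (Pearson r = 0.998 of log2 CPM) and NUAK1 (r = 0.997), among 9588 genes compared, of which 105 had r over 0.95. TFAM was most like UBP1 (r = 0.995) and SLC6A15 (r = 0.992), and UCP2 most like NXPH4 (r = 0.997) and PKMYT1 (r = 0.981). The points share libraries, depth and group, so high values are common with 6 points.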

How the data were processed

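The authors sequenced poly(A) RNA with the NEBNext Ultra kit and deposited, per library, reads per gene as counts, beside deposited TPM and FPKM, both computable from the counts and gene lengths. The submitters' processing notes name hg38, CASAVA, featureCounts 2.0.1 and DESeq2 1.16.1 without roles. The aligner and the use of strand are not given in the sources used here. Counts were tested with edgeR 4.0.16 in R 4.3.3: filterByExpr (minimum count 10, minimum total 15), TMM (factors 0.981 to 1.04), the quasi-likelihood test over 15340 genes, Benjamini-Hochberg adjustment and a threshold of 0.05. CPM is TMM-normalized and TPM is as deposited; FPKM was not tested. DESeq2 1.42.0 was an alternative. Single values used exact two-sided permutation tests. The procedure was tested on simulated data. The exact binomial intervals and the floors cover counting error only, while the edgeR intervals also include the spread between libraries. No molecular identifiers are named in the sources used here, so reads may not be independent molecules.

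The members and lists were chosen with earlier results of these data known. Named were all members and, of each list, the most abundant gene and those with the smallest 2 unadjusted p-values, with family members the text turns on, and for tested members the 2 most similar profiles, given here for PPARGC1A, TFAM and UCP2. Values of 2 genes of the lists are not reported here. Promoter windows came from RefSeq on GRCh38.p14 and transcripts from GENCODE release 29. Replicates of a group differed by more than sampling noise.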

Additional observations from a re-analysis of the deposited data

How the results depend on the processing

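Members past the adjusted threshold numbered 0, and 1, PPARGC1A, with no filter on low counts, with DESeq2 and without IR+NC-LV replicate 2, and was 0 to 1 over libraries left out in turn. All genes past it numbered 10, but 342 with no filter, 168 with DESeq2 and 3 with the replicate number as a block, where no member passed and PPARGC1A had an adjusted p of 0.121. With IR+NC-LV replicate 1 left out they numbered 1, as with replicate 3 of IR+PR-LV left out. Leaving out control replicate 2 gave 28 and control replicate 3 gave 16. Deviations of same-numbered libraries from their group means had correlations of -0.0088, 0.0514 and 0.0706, beside -0.0971 to 0.0619 for libraries with different numbers. The sources used here do not say whether libraries were paired, and these correlations cannot decide it. Pathway genes past the threshold numbered 0, and 2 with no filter, NDUFS1 and SLC25A6, both listed in 2 copies. PPARGC1A was -0.76 with no filter, -0.75 with DESeq2 and between -0.89 and -0.65 over libraries left out (log2).

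Signs of uncalled members turned over libraries left out (log2 ranges): PPARGC1B -0.20 to 0.011, UCP2 -0.10 to 0.014, UCP3 -0.037 to 0.18, DIO2 -0.30 to 0.28 and ESRRA -0.12 to 0.12. TFAM and NRF1 kept theirs under all 13 alternatives. The log2 ratio of mean PRDM16 CPM, 3.09, ran from 2.50 to 3.91. The cause of these changes was not tested. Depth limits UCP1, UCP3, DIO2 and PRDM16, with at most 53 counts in a library.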
